A study of Mus musculus with 20 samples.

Results

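Coding sites are positions of adenosine-to-inosine (A-to-I) RNA editing that lie inside protein-coding sequence. They were taken as every listed site annotated Nonsyn or Syn with at least 50 reads in both libraries of at least 1 of the 10 groups. At a Nonsyn site the edited codon names another amino acid, which is called recoding, and at a Syn site it names the same one. The rule gave 401 sites in 44 genes, of which 287 were nonsynonymous and 114 synonymous. The files list 1009 coding sites in 103 genes, among 48425 sites of all annotations. Of these, 9065 met the same coverage rule, with 5759 in 3′ UTRs, 1304 in introns, 1060 between genes, 378 in noncoding RNAs and 163 in 5′ UTRs. The listed amino acid changes fit the label, since each Nonsyn site names different residues before and after editing and each Syn site names one residue.

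Editing was read in amplicons from mouse embryonic fibroblasts (MEFs), matrix-making cells cultured from embryos. The genotype labels are ADAR1_WT, ADAR1_NULL (no ADAR1), P150_KO (no p150 form of ADAR1), ADAR2_NULL (no ADAR2) and STAT2_NULL (no STAT2). Each of these 5 lines was sampled untreated (UNT) and after interferon (IFN), with 2 libraries for each line and treatment, which gives 20 libraries. The series' design text names 557 amplified loci and 6 lines, of which 1 was not analysed here. Neither the kind, amount and time of interferon nor the strains and origin of the lines are stated in the labels. No label calls ADAR1_WT a matched control of the other lines, and each genotype is 1 line, so the genotype and other differences between lines cannot be told apart. The assay reads editing and not expression, so the loss of each targeted gene could not be checked. Of 11 fibroblast and immune marker genes, 0 held a coding site, so the cell type could not be checked either.

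Inosine pairs like guanosine, so the ribosome and reverse transcriptase both read it as G, and an edited codon can specify a different amino acid. ADAR1 is made as a constitutive, mainly nuclear p110 form and an interferon-inducible, largely cytoplasmic p150 form, while ADAR2, the product of Adarb1, is known for recoding receptor and channel transcripts in the brain. Most A-to-I editing falls in repeats of introns and untranslated regions, and coding sites form where an exon pairs with a nearby intronic or exonic sequence. STAT2 is a transcription factor through which type I interferons act.

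Total coverage summed over all sites ran from 4389326 to 5559674 reads per library, and 221 to 377 coding sites had at least 50 reads in a library. The lowest of these counts was in P150_KO interferon library 1. In all 10 groups, the 2 libraries of a group differed at coding sites by more than read counting allows, with chi-square values of 2.21 to 13.9 per degree of freedom, so each library was kept as a replicate. No label ties the 2 libraries of a group to different cultures, and p-values therefore reflect library-to-library spread that may be technical only. Amplicon reads carry no molecular identifiers. Where a level was 0 in both libraries, the limit given is the level that 3 edited reads would make of the group's reads, and it covers counting error only. Positions are on mouse build mm9 as the files give them, and whether they count from 0 or 1 is not stated.

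Most coding sites had low shares of edited reads. No rate of sequencing or PCR error was measured here, so levels under 1% may hold error as well as editing. Of the 401 sites, 302 stayed under 1% in every group in which they were covered, and 9 of those had no edited read. A further 76 sites reached a group mean of 1 to 5%, and 23 sites in 18 genes reached 5% or more. The median over sites of the highest group level was 0.614%. The median level of the covered sites lay between 0.177% in untreated ADAR1_NULL and 0.321% in interferon-treated P150_KO. Of the 23 sites at 5% or more, 18 were nonsynonymous and 5 synonymous, 12 reached 10% and 7 reached 20%. At 16 of the 23 both libraries of a group were at 5% or more, and the other 7 reached it through 1 library. The sites next to the 5% line were Sh3bp2 Stp→Trp at 4.68% and uc008wxi.1 Arg→Arg at 4.09% below it, and Son Thr→Ala at 5.30%, Kcna1 Thr→Ala at 5.35% and Son Ser→Ser at 5.55% above it.

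**Figure D1:**
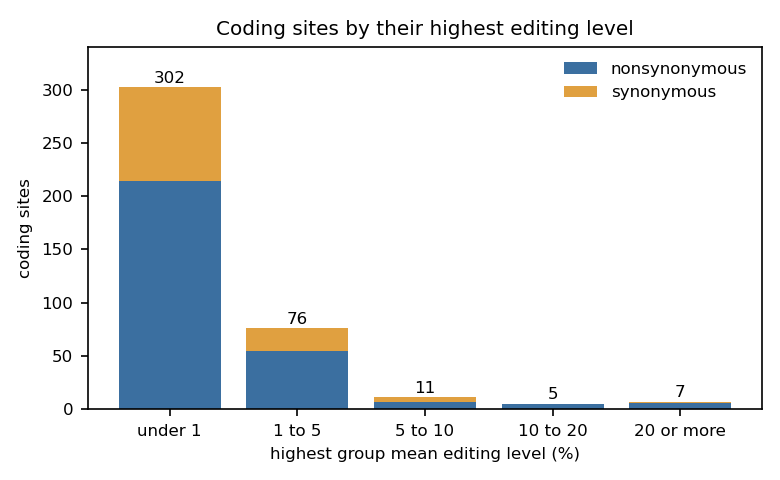
Number of coding sites (vertical axis) by their highest group mean editing level in percent (horizontal axis), with nonsynonymous and synonymous sites stacked and the total above each bar. Of the 401 sites, 302 lie under 1%, 76 between 1 and 5%, 11 between 5 and 10%, 5 between 10 and 20%, and 7 at 20% or more.

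The members were unevenly spread over genes. The 15 genes with at least 10 members held 290 of the 401, led by Zfp397, a zinc finger protein, with 39, Ifi202b, an interferon-inducible protein of the p200 family, with 38, and AI607873, now named Ifi207 and of the same family, with 29. Neil1, a DNA glycosylase of base excision repair, had 9 members, of which the highest were Asn→Ser at 2.09% in untreated ADAR1_WT and Lys→Arg at 1.90% in untreated STAT2_NULL. Neighbouring members of 1 gene can share reads and are not independent. Among nonsynonymous members 16 kinds of amino acid change were listed. The most frequent were Lys→Arg at 38 sites, Thr→Ala at 29, Lys→Glu at 28, Glu→Gly at 27, Ser→Gly at 24 and Asp→Gly at 22. At 5% or more, Gln→Arg and Thr→Ala had 3 sites each, Lys→Glu, Glu→Gly, Ser→Gly, Arg→Gly and Ile→Val had 2 each, and Asp→Gly had 0.

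Coverage of a site was not uniform over the lines. Of the 401 members, 136 were covered in all 10 groups and 2 in 1 group only. Cadps, which acts in dense-core vesicle release, was covered in ADAR1_WT alone. Grik2, a kainate-type glutamate receptor subunit, was covered in ADAR1_NULL and STAT2_NULL, and Gabra3, a GABA-A receptor subunit, in ADAR1_NULL and ADAR2_NULL. The 7 Gabra3 members stayed between 0.222% and 0.614% at their highest.

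**Figure D2:**
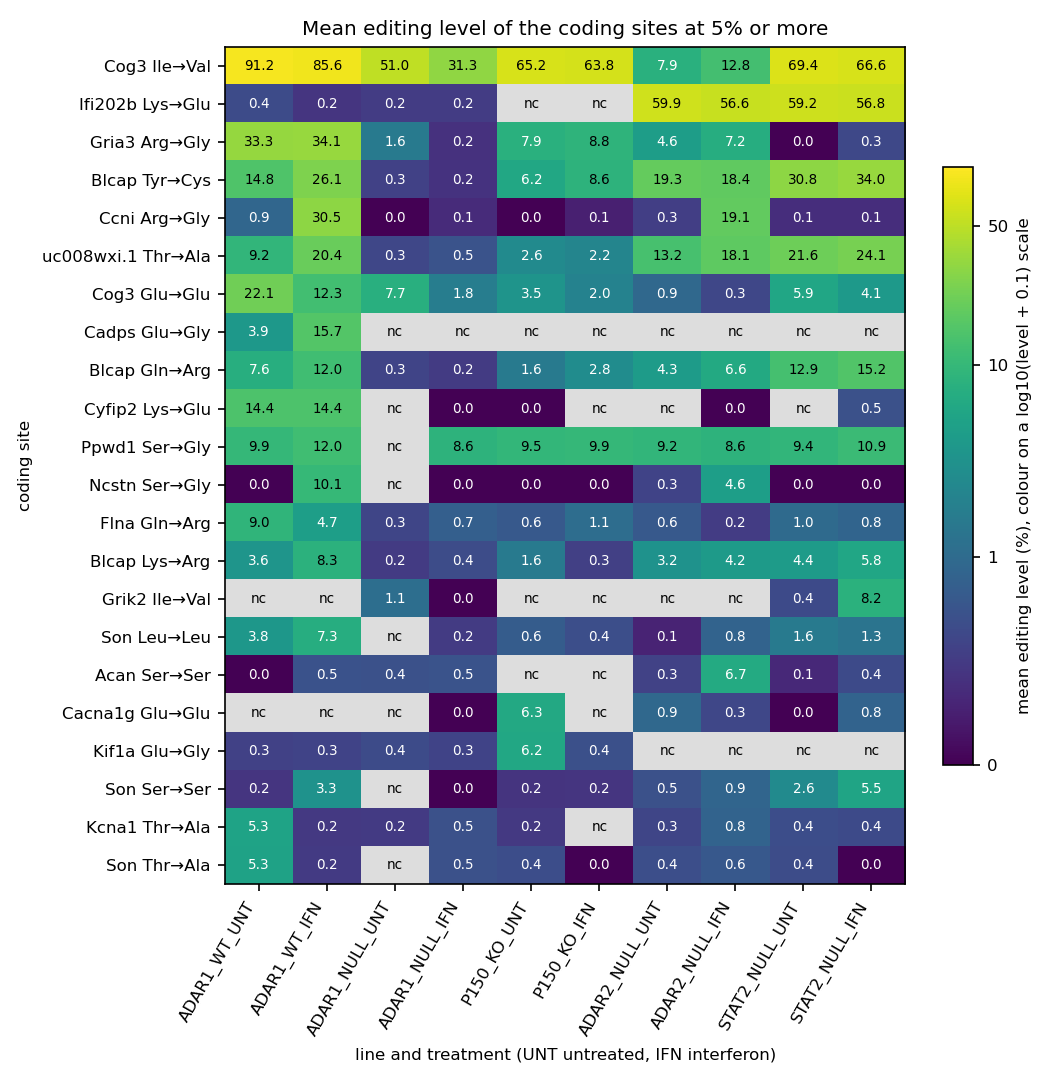
Mean editing level in percent of 22 of the 23 coding sites that reached 5% in at least 1 group (rows), in the 10 combinations of line and treatment (columns), with the value printed in each cell, the colour on a log10 scale and nc for groups without 50 reads in both libraries. Cog3 Ile→Val leads with 91.2% in untreated ADAR1_WT. Ifi202b Lys→Glu is near 60% in ADAR2_NULL and STAT2_NULL, low in ADAR1_WT and ADAR1_NULL, and not covered in P150_KO. Most other cells lie below 10%.

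The share of covered sites at 5% or more was compared between coding and 3′ UTR sites, untreated and after interferon. In ADAR1_WT it was 3.67% of coding sites untreated (12 of 327) and 3.98% after interferon (13 of 327), while 3′ UTR sites went from 3.73% to 13.7% and intronic sites from 1.33% to 4.11%. In ADAR2_NULL coding sites went from 1.48% (5 of 337) to 2.72% (9 of 331), and 3′ UTR sites from 0.982% to 9.94%. In STAT2_NULL the coding shares were 2.0% (7 of 350) and 2.83% (10 of 353), beside 2.34% and 2.66% of 3′ UTR sites. In P150_KO 2.17% of coding sites (6 of 276) reached 5% untreated and 1.81% (4 of 221) after interferon, against 0.571% and 0.509% of 3′ UTR sites. In ADAR1_NULL the coding shares were 0.766% (2 of 261) and 0.531% (2 of 377), against 0.173% and 0.128% of 3′ UTR sites. Some sites in these counts reached 5% through 1 library. Among them were Kif1a Glu→Gly and Cacna1g Glu→Glu in untreated P150_KO, and Kcna1 Thr→Ala and Son Thr→Ala in untreated ADAR1_WT. The sites covered differ between groups, and these shares were not tested against each other.

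**Figure D3:**
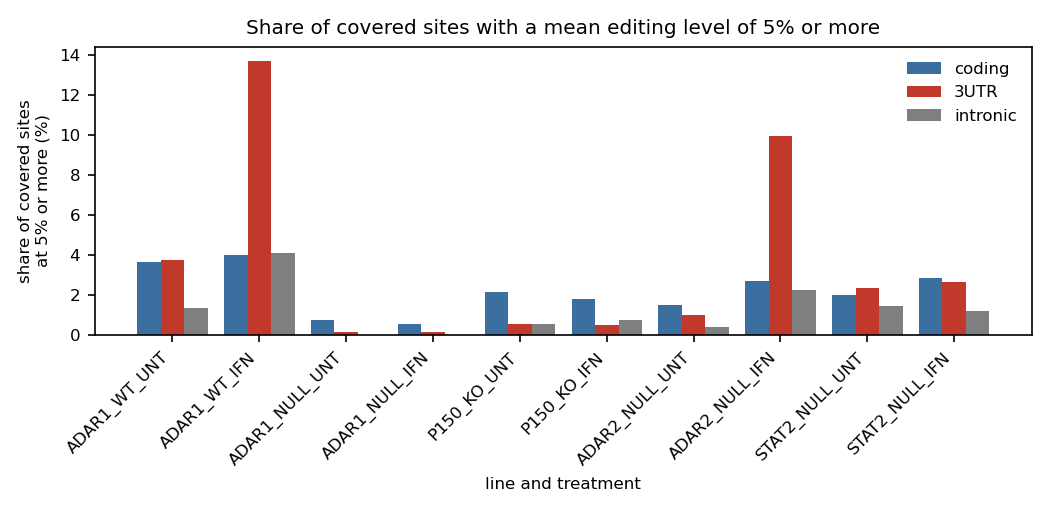
Share in percent of covered sites with a mean editing level of 5% or more (vertical axis) in each line and treatment (horizontal axis), for coding, 3′ UTR and intronic sites. The 3′ UTR share rises to 13.7% in interferon-treated ADAR1_WT and 9.94% in interferon-treated ADAR2_NULL, while the coding share stays between 0.531% and 3.98% in all 10 groups.

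Differences were tested on edited and unedited read counts with edgeR's quasi-likelihood test, and adjusted p-values are Benjamini-Hochberg values over all sites of every annotation tested in a comparison. A site was tested where every library of the groups compared had at least 50 reads and the mean level over them was at least 1%, and it was called under 0.05. A site near 0 in 1 group can thus enter only through the other, which fixes the direction of its difference. Over 21 comparisons, 59 coding sites in 28 genes could be tested in at least 1, and 342 were never tested. In all, 22 sites in 13 genes, 7 of them synonymous, were called in 80 site and comparison pairs. Several comparisons share the ADAR1_WT or ADAR1_NULL libraries, so their calls are not independent. Differences below are in percentage points of editing level with the standard error (SE) from the 2 libraries of each group. Where the 2 libraries happen to agree, or are both at 0%, this SE can fall below counting error.

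Interferon raised few coding sites. In ADAR1_WT, 3 of 33 coding sites tested were called, all higher, against 41.7% of all sites tested (41.0% higher), and the median difference was 1.28 points over coding sites and 5.27 points over all sites. In ADAR2_NULL, 2 of 18 were called, both higher, against 49.8% of all sites (49.7% higher). Without ADAR2_NULL untreated library 1 this count was 4, and without its library 2 it was 1. No coding site was called with interferon in the other 3 lines by edgeR, with 0 of 4 in ADAR1_NULL (0.0% of all sites tested), 0 of 13 in P150_KO (0.823% of all sites) and 0 of 21 in STAT2_NULL (0.0% of all sites). In each of these 3 lines the number at an unadjusted p under 0.05 was also 0, as was limma's count. Without P150_KO interferon library 2, 1 site was called in P150_KO.

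Every coding site called against ADAR1_WT in the lines without ADAR1 or its p150 form was lower there, and the share called was near or below that over all sites. In ADAR1_NULL 10 of 261 covered coding sites reached 1% untreated and 13 of 377 after interferon, against 30 and 35 of 327 in ADAR1_WT. P150_KO had 16 of 276 and 16 of 221. Many sites could therefore enter only through ADAR1_WT, so the minimum level partly set the direction of these calls and the sign of the medians. In untreated cells 7 of 15 coding sites tested were called in ADAR1_NULL, all lower (46.9% of all sites tested, and 46.6% lower), and 4 of 20 in P150_KO, all lower (30.0% of all sites, and 29.2% lower). After interferon 15 of 27 were called in ADAR1_NULL, all lower (70.9% of all sites, each of them lower), and 11 of 26 in P150_KO, all lower (64.0% of all sites, and 63.3% lower). The median difference after interferon was -3.48 points in ADAR1_NULL and -3.20 in P150_KO over coding sites, and -7.06 and -6.14 over all sites. The ADAR1_NULL count after interferon was 8 without either ADAR1_NULL interferon library, and the P150_KO count was 6 without P150_KO interferon library 2. In untreated P150_KO the count was 2 without either ADAR1_WT library or without P150_KO library 2, and 0 without P150_KO library 1.

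In ADAR2_NULL 4 of 21 coding sites were called in untreated cells, 3 lower and 1 higher (10.7% of all sites tested, with 10% lower and 0.68% higher), and 3 of 34 after interferon, 2 lower and 1 higher (1.56% of all sites, with 1.26% lower and 0.297% higher). Without ADAR2_NULL untreated library 2 the first count was 2, and without either ADAR2_NULL interferon library the second was 1. In STAT2_NULL 2 of 25 were called in untreated cells, 1 lower and 1 higher (3.42% of all sites, with 2.02% lower and 1.4% higher), and 6 of 29 after interferon, 5 lower and 1 higher (41.3% of all sites, with 40.2% lower and 1.15% higher). Without either untreated STAT2_NULL library the first count was 1, and without either treated library the second was 3.

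Set against ADAR1_NULL, P150_KO had 1 of 7 coding sites called in untreated cells (13.2% of all sites tested, and 10.5% higher) and 3 of 13 after interferon (5.58% of all sites, and 5.08% higher), all higher. The untreated count was 2 without P150_KO library 2, and the interferon count was 1 without either ADAR1_NULL library or without P150_KO library 1. ADAR2_NULL against ADAR1_NULL had 7 of 10 called in untreated cells, 5 higher and 2 lower (36.0% of all sites, with 31.8% higher and 4.24% lower), and 11 of 24 after interferon, all higher (67.5% of all sites, and 67.4% higher). Differences in the response to interferon between a line and ADAR1_WT were called at 1 of 21 coding sites in P150_KO, lower (13.9% of all sites, and 13.8% lower). They were called by edgeR at 0 of 13 in ADAR1_NULL (10.3%), 0 of 31 in ADAR2_NULL (0.175%) and 0 of 26 in STAT2_NULL (13.3%). At an unadjusted p under 0.05 those 3 lines had 0, 1 and 0 coding sites, and limma called 1, 0 and 2. Without ADAR1_WT untreated library 1 the ADAR1_NULL count was 1, and the P150_KO count was 0 without ADAR1_WT untreated library 2, P150_KO untreated library 2 or P150_KO interferon library 1.

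**Figure D4:**
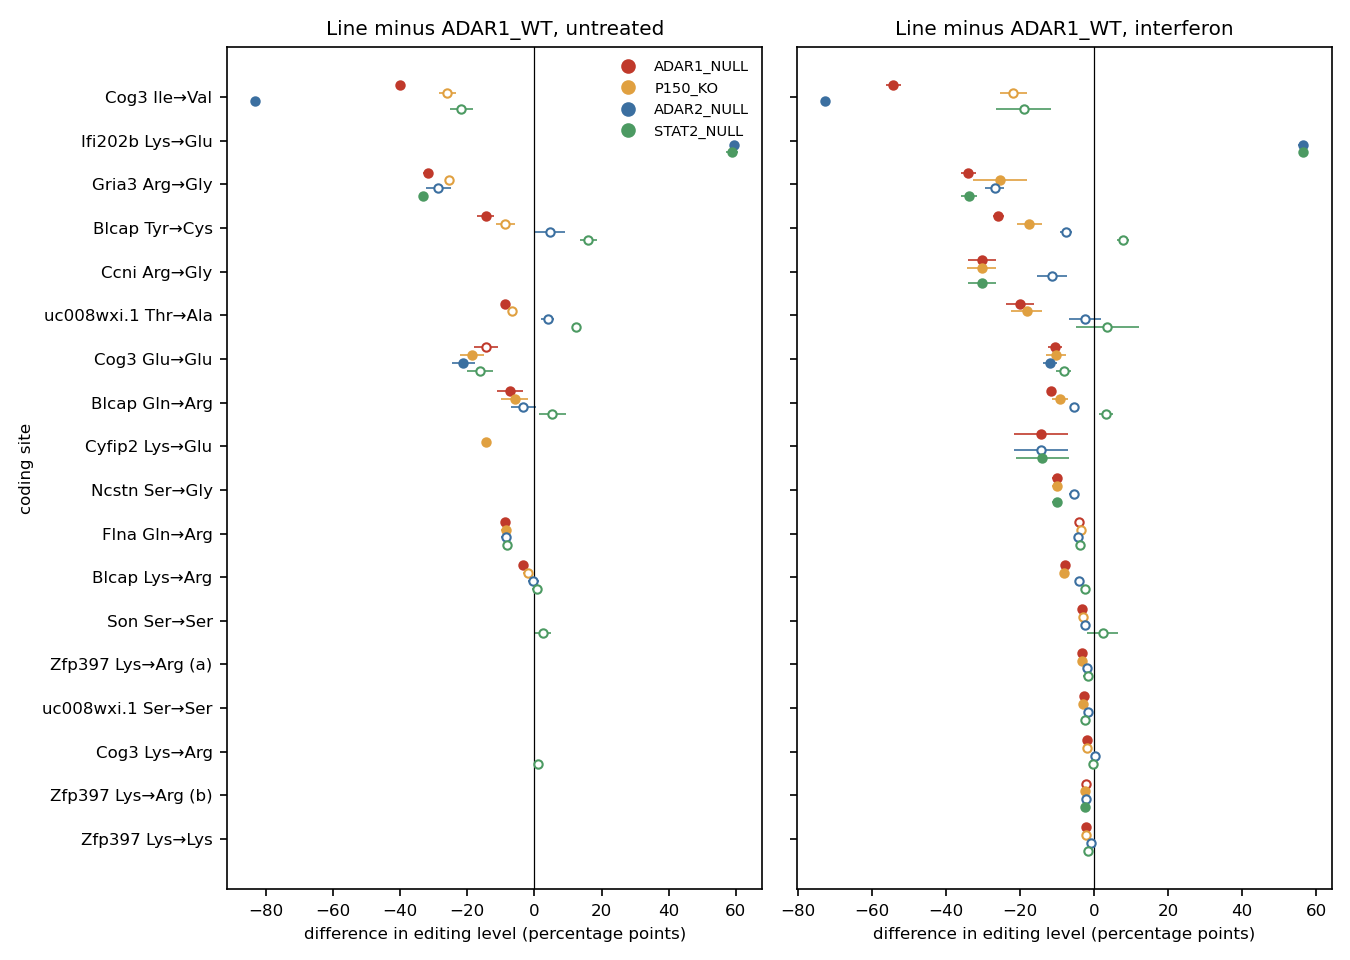
Difference in editing level from ADAR1_WT in percentage points (horizontal axis) for 18 coding sites called in at least 1 such comparison (rows), untreated at left and after interferon at right. Points are coloured by line, filled where edgeR called the difference and open where it did not, with bars for the SE. Most points lie at or below 0, with Cog3 Ile→Val in ADAR2_NULL farthest down at -83.3 and -72.9 points, and Ifi202b Lys→Glu stands alone near 60 points above 0.

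A list of 18 genes whose recoding is attributed mainly to ADAR2 (glutamate receptors, Flna, Cog3, Cyfip2 and others) had coding members in 10 genes, 77 sites, of which 9 reached 5%. Against ADAR1_WT in untreated cells, 3 of its 8 tested sites were called lower in ADAR1_NULL, 3 of 8 in P150_KO, 3 of 8 in ADAR2_NULL and 1 of 8 in STAT2_NULL, beside 46.6%, 29.2%, 10% and 2.02% of all sites tested. Its median differences were -8.25, -11.4, -9.12 and -7.22 points, beside -4.04, -3.25, -2.30 and -0.751 over all sites tested. After interferon 5 of 7, 2 of 6, 2 of 7 and 2 of 8 were called lower in these lines, beside 70.9%, 63.3%, 1.26% and 40.2% of all sites, with medians of -10.5, -6.93, -12.0 and -6.05 points beside -7.06, -6.14, -1.88 and -5.53 over all sites. The ADAR2_NULL calls after interferon were adjacent bases of Cog3, read on the same molecules, and therefore stand for 1 locus. The same bases were among its untreated calls, and Cog3 also held several of the ADAR1_NULL calls after interferon. Over its 10 sites tested with interferon in ADAR1_WT the median difference was -2.15 points, beside 5.27 over all sites.

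Cog3, a subunit of the conserved oligomeric Golgi complex that tethers vesicles within the Golgi, carried the highest edited coding site, an Ile→Val change (chr14:76119526, minus strand). The level was 92.3% and 90.2% in the untreated ADAR1_WT libraries and 86.2% and 85.0% after interferon, on 568 to 937 reads per library over all groups. ADAR2_NULL had 7.73% and 8.13% untreated and 13.5% and 12.0% after interferon. ADAR1_NULL had 50.4% and 51.7% untreated and 29.4% and 33.2% after interferon. ADAR2_NULL was the lowest line and ADAR1_WT the highest in both treatments, and no library of ADAR2_NULL or ADAR1_NULL reached the level of any ADAR1_WT library. P150_KO had 67.6% and 62.9% untreated and 67.4% and 60.2% after interferon, and STAT2_NULL had 72.7% and 66.1%, then 59.1% and 74.0%. The libraries of P150_KO and STAT2_NULL overlapped each other and lay below all ADAR1_WT libraries.

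The difference of ADAR2_NULL from ADAR1_WT at Cog3 Ile→Val was -83.3 ± 1.06 points untreated (edgeR adjusted p = 0.000104) and -72.9 ± 0.970 points after interferon (edgeR adjusted p = 0.00347). The second call was lost without either ADAR2_NULL interferon library (edgeR adjusted p = 0.0861 without library 1 and 0.104 without library 2), and both were lost when the compared groups were fitted alone (0.0862 untreated and 0.190 after interferon). ADAR1_NULL was lower than ADAR1_WT by -40.2 ± 1.23 points untreated (edgeR adjusted p = 0.0101) and -54.3 ± 2.02 points after interferon (0.00297), and both calls held under every alternative tried. Between the knockouts, untreated ADAR2_NULL differed from ADAR1_NULL by -43.1 ± 0.680 points (edgeR adjusted p = 0.00927, and 0.0565 with the compared groups alone). After interferon the same difference was -18.6 ± 2.05 points and was not called (edgeR adjusted p = 0.146). P150_KO and STAT2_NULL were not called against ADAR1_WT, with -26.0 ± 2.56 points (edgeR adjusted p = 0.0640) and -21.8 ± 3.46 points (0.299) in untreated cells. The change with interferon in ADAR1_NULL, -19.7 ± 2.02 points with no overlap of libraries, was not called (edgeR adjusted p = 0.702).

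The neighbouring base of Cog3, a synonymous Glu→Glu site (chr14:76119527), is read on the same molecules. Its levels were 25.6% and 18.6% in untreated ADAR1_WT and 14.2% and 10.4% after interferon. In ADAR2_NULL they were 0.428% and 1.46%, then 0.338% and 0.331%. The site was thus far lower than Ile→Val throughout, and its ADAR1_WT libraries lay above those of every other line. ADAR2_NULL differed from ADAR1_WT by -21.2 ± 3.52 points untreated (edgeR adjusted p = 0.00904) and -12.0 ± 1.93 after interferon (0.0246). ADAR1_NULL and P150_KO differed by -10.5 ± 1.94 and -10.3 ± 2.66 points after interferon (edgeR adjusted p = 0.0272 and 0.0197). The untreated P150_KO difference of -18.6 ± 3.55 points sat at the threshold (edgeR adjusted p = 0.04996), and ADAR2_NULL was -6.73 ± 1.12 points from ADAR1_NULL (0.0394).

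Each of these calls at Cog3 Glu→Glu was lost without at least 1 library. The untreated ADAR2_NULL call against ADAR1_WT was lost without ADAR2_NULL library 1 (edgeR adjusted p = 0.0784) or 2 (0.0503), and the interferon call without ADAR1_WT library 2 (0.0586) or ADAR2_NULL library 1 (0.181) or 2 (0.171). After interferon the ADAR1_NULL call was lost without ADAR1_NULL library 1 (edgeR adjusted p = 0.0718) or 2 (0.0986) or ADAR1_WT library 1 (0.0747), and the P150_KO call without ADAR1_WT library 1 (0.0578) or P150_KO library 1 (0.191). The untreated P150_KO call was lost without any 1 of its 4 libraries (0.0800 to 0.170), with the replicate block (0.0614), with a coverage minimum of 20 (0.0612) and with no minimum level (0.171). The ADAR2_NULL call against ADAR1_NULL was lost without ADAR1_NULL library 1 (edgeR adjusted p = 0.181) or 2 (0.0709) or ADAR2_NULL library 1 (0.214). Of the 6 calls, the 1 for ADAR1_NULL after interferon was the only 1 kept with the compared groups alone.

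Cog3 Lys→Arg (chr14:76119510), 16 bases from Ile→Val, did not follow the same order of lines. Its group means ran from 0.315% in interferon-treated ADAR1_NULL to 2.49% in interferon-treated ADAR2_NULL, where Ile→Val was at 12.8%. After interferon ADAR1_NULL was -1.96 ± 0.544 points from ADAR1_WT (edgeR adjusted p = 0.0462), and ADAR2_NULL was 2.18 ± 0.982 points above ADAR1_NULL (0.0456). Both calls were lost without either ADAR1_NULL library (edgeR adjusted p = 0.0547 and 0.190 in the first, 0.0571 and 0.193 in the second), as well as without ADAR1_WT library 1 (0.0550) in the first and ADAR2_NULL library 1 (0.0584) in the second. They were also lost with a coverage minimum of 20, with no minimum level and with the replicate block.

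**Figure D5:**
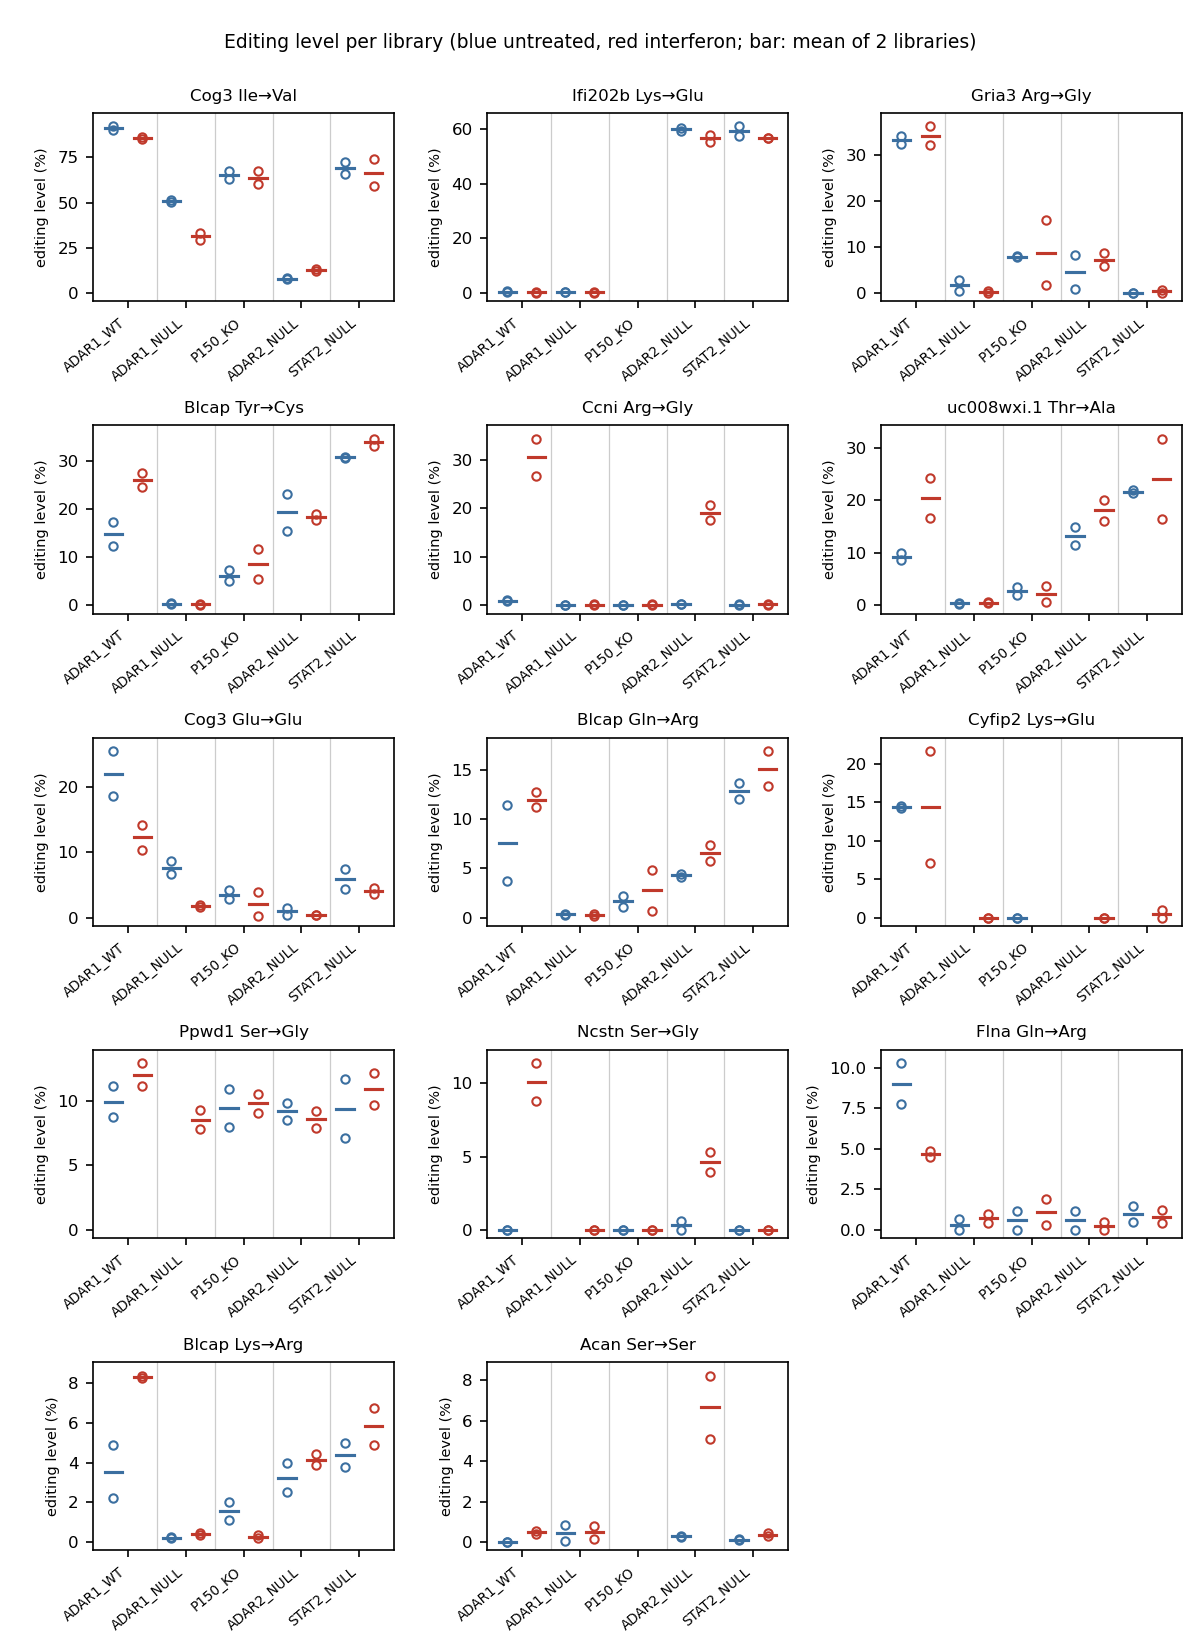
Editing level per library in percent (vertical axes, each with its own scale) at 14 coding sites whose highest group had both libraries at 5% or more and that were covered in more than 1 line, for the 5 lines (horizontal axes). Circles are libraries, blue untreated and red interferon, bars are the mean of 2 libraries, and groups without 50 reads in both libraries are left blank. Cog3 Ile→Val is lowest in ADAR2_NULL, the Blcap sites are near 0 in ADAR1_NULL, and Ccni Arg→Gly is above 1% only in interferon-treated ADAR1_WT and ADAR2_NULL.

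Flna encodes filamin A, which crosslinks actin filaments, and carries a Gln→Arg site. At Flna (chrX:71472201, minus strand) the ADAR1_WT libraries had 7.77% and 10.3% untreated and 4.51% and 4.88% after interferon. The other 4 lines had group means of 0.244% to 1.09% in both treatments. Every ADAR1_WT library thus lay above every library of the other lines. In untreated cells ADAR1_NULL differed from ADAR1_WT by -8.71 ± 1.30 points (edgeR adjusted p = 0.0148) and P150_KO by -8.44 ± 1.39 (0.0414). The ADAR2_NULL difference, -8.45 ± 1.39 points, was not called (edgeR adjusted p = 0.0703), nor was that of STAT2_NULL, -8.04 ± 1.35 (0.274). The ADAR1_NULL call was lost without ADAR1_NULL library 2 (edgeR adjusted p = 0.0816) and with the compared groups alone (0.0710). The P150_KO call was lost without any 1 of its 4 libraries (0.0580 to 0.200), with no minimum level (0.156) and with the compared groups alone (0.136).

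With interferon Flna Gln→Arg was lower in ADAR1_WT with no overlap of libraries, by -4.34 ± 1.27 points, and was not called (edgeR adjusted p = 0.523). An intronic site 212 bases from the Flna site (chrX:71471989) had 44.2% and 42.2% in untreated ADAR1_WT and 62.9% and 20.3% in interferon-treated P150_KO. It was therefore high in 1 group in which the Flna coding site was near 1%.

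Gria3 encodes an AMPA-type glutamate receptor subunit, and its Arg→Gly site (chrX:39007429, plus strand) is the known R/G position next to an alternatively spliced exon. ADAR1_WT had 32.4% and 34.2% untreated and 32.1% and 36.2% after interferon. ADAR1_NULL had 2.75% and 0.467%, then 0% and 0.337%. In STAT2_NULL no edited read was found untreated, which allows up to 0.355%, and 0.690% and 0% were found after interferon. All ADAR1_WT libraries lay above all other libraries. P150_KO had 7.97% and 7.77% untreated and 15.8% and 1.70% after interferon, and ADAR2_NULL had 8.32% and 0.919%, then 5.74% and 8.72%. The libraries of interferon-treated P150_KO and of untreated ADAR2_NULL lay far apart from each other within the group.

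Against ADAR1_WT the Gria3 site was lower in ADAR1_NULL by -31.7 ± 1.45 points untreated (edgeR adjusted p = 0.00233) and by -34.0 ± 2.07 after interferon (4.44e-05). In STAT2_NULL it was lower by -33.3 ± 0.898 points untreated (edgeR adjusted p = 0.000946) and by -33.8 ± 2.09 after interferon (0.000623). The calls after interferon in both lines held under every alternative. The untreated ADAR1_NULL call was lost without its library 2 (edgeR adjusted p = 0.0608), and the untreated STAT2_NULL call without its library 1 (0.10) or 2 (0.0554) and with the compared groups alone (0.130). P150_KO was lower by -25.4 ± 7.35 points after interferon (edgeR adjusted p = 0.0451), a call lost without ADAR1_WT library 2 (0.0810) or P150_KO library 2 (0.349), with a coverage minimum of 100 (0.0541) and with the compared groups alone (0.0993). ADAR2_NULL was not called, at -28.7 ± 3.81 points untreated (edgeR adjusted p = 0.0516) and -26.9 ± 2.54 after interferon (0.309).

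After interferon the Gria3 site was higher than in ADAR1_NULL by 7.06 ± 1.5 points in ADAR2_NULL (edgeR adjusted p = 0.00237), a call that held under every alternative. The P150_KO excess of 8.59 ± 7.06 points (edgeR adjusted p = 0.0494) rested on 1 library at 15.8% and 1 at 1.70%. It was lost without ADAR1_NULL library 1 or 2 and with a coverage minimum of 100 (edgeR adjusted p = 0.0604). It was also lost with the minimum level over all 20 libraries (edgeR adjusted p = 0.203) and with the compared groups alone (0.680). The other 5 Gria3 members stayed under 1%. An intronic Gria3 site 36 bases away (chrX:39007465) had 10.2% and 6.16% in untreated ADAR1_WT and 24.7% and 35.5% after interferon. The change of the Arg→Gly site beside it with interferon in ADAR1_WT was 0.842 ± 2.25 points and was not called (edgeR adjusted p = 0.974).

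Cyfip2 belongs to the WAVE complex that controls actin assembly, and its Lys→Glu site (chr11:46086145, minus strand) was covered in 6 groups at 67 to 235 reads per library. ADAR1_WT had 14.3% and 14.5% untreated and 7.14% and 21.7% after interferon. No edited read was found in untreated P150_KO, which allows up to 0.761%, in interferon-treated ADAR1_NULL, up to 2.04%, or in interferon-treated ADAR2_NULL, up to 1.55%. Interferon-treated STAT2_NULL had 0% and 0.917%. All libraries of the knockout lines lay below those of ADAR1_WT. Untreated P150_KO differed from ADAR1_WT by -14.4 ± 0.0912 points (edgeR adjusted p = 0.00697), and after interferon ADAR1_NULL by -14.4 ± 7.27 (0.0126) and STAT2_NULL by -14.0 ± 7.28 (0.0347). ADAR2_NULL after interferon, at -14.4 ± 7.27 points, was not called (edgeR adjusted p = 0.0987).

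The 3 Cyfip2 calls rested on few reads. The small SE of the untreated P150_KO difference came from libraries that happened to agree and is not a bound on counting error. The P150_KO call was lost without P150_KO library 1 (edgeR adjusted p = 0.0594) or 2 (0.0554), and the ADAR1_NULL call without ADAR1_NULL library 1 (0.0561) or 2 (0.0671). The STAT2_NULL call was lost without ADAR1_WT library 2 (edgeR adjusted p = 0.109), STAT2_NULL library 1 (0.167) or 2 (0.0854), and with no minimum level (0.0685). With the compared groups alone all 3 were lost (0.0649, 0.0571 and 0.0940).

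Among the remaining genes of this list, Cadps Glu→Gly (chr14:13244096, minus strand) had 3.29% and 4.45% in untreated ADAR1_WT and 23.0% and 8.38% after interferon. The libraries did not overlap, and the difference of 11.8 ± 7.32 points was not called (edgeR adjusted p = 0.207). Grik2 Ile→Val (chr10:48992595, minus strand) had 0.755% and 15.6% in interferon-treated STAT2_NULL. It was at or under 2.20% in every other covered library, so its mean of 8.19% came from 1 library. Tmem63b Gln→Arg, in a mechanosensitive channel gene, reached 1.90% in untreated ADAR1_WT.

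A list of 7 genes whose recoding is attributed mainly to ADAR1 had coding members in 2 genes, Blcap and Neil1, with 13 sites. Of its 4 sites tested in untreated cells against ADAR1_WT, 3 were called lower in ADAR1_NULL, 1 in P150_KO and 0 in ADAR2_NULL, beside 46.6%, 29.2% and 10% of all sites, with medians of -5.30, -3.97 and -0.925 points beside -4.04, -3.25 and -2.30 over all sites tested. After interferon, 3 of 3 were called lower in ADAR1_NULL and 3 of 3 in P150_KO, with medians of -11.7 and -9.22 points, against 0 of 4 in ADAR2_NULL and 0 of 3 in STAT2_NULL, with medians of -4.78 and 3.19. The 3 sites tested in ADAR1_NULL, P150_KO and STAT2_NULL all lie in 1 gene, Blcap. They are close together, can share reads and stand for 1 locus, and all calls of this list were at Blcap. Over all sites 70.9%, 63.3%, 1.26% and 40.2% were called lower in these lines, with medians of -7.06, -6.14, -1.88 and -5.53 points. In STAT2_NULL untreated, 0 of 5 were called.

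Blcap encodes a small conserved membrane protein and held 3 of these sites within 39 bases of each other on chromosome 2, minus strand. The highest was Tyr→Cys (chr2:157383885), with 17.4% and 12.3% in untreated ADAR1_WT and 24.7% and 27.5% after interferon, on 2794 to 5672 reads per library. ADAR1_NULL had 0.387% and 0.181%, then 0.106% and 0.241%. P150_KO had 4.95% and 7.37%, then 11.8% and 5.39%. Editing at Blcap Tyr→Cys was thus nearly absent in ADAR1_NULL and intermediate in P150_KO, whose libraries lay below all 4 of ADAR1_WT. ADAR2_NULL had 23.2% and 15.5%, then 19.1% and 17.7%, which overlapped the untreated ADAR1_WT libraries and lay below the treated ones. STAT2_NULL was highest, with 30.9% and 30.8%, then 34.7% and 33.2%, above every library of the other lines.

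At Blcap Tyr→Cys, ADAR1_NULL differed from ADAR1_WT by -14.5 ± 2.55 points untreated (edgeR adjusted p = 4.47e-07) and -25.9 ± 1.41 after interferon (5.77e-09). It also lay 19.1 ± 3.82 points below ADAR2_NULL untreated (edgeR adjusted p = 9.74e-08) and 18.3 ± 0.680 below it after interferon (2.66e-08), and these 4 calls held under every alternative. P150_KO lay above ADAR1_NULL by 5.87 ± 1.21 points untreated (edgeR adjusted p = 0.000138) and 8.43 ± 3.21 after interferon (4.89e-06). Both of these were lost with the compared groups alone (edgeR adjusted p = 0.0555 and 0.680) and kept under all other alternatives. P150_KO was lower than ADAR1_WT after interferon, by -17.5 ± 3.5 points (edgeR adjusted p = 0.0172). That call was lost without P150_KO library 2 (edgeR adjusted p = 0.108), with no minimum level (0.0612) and with the compared groups alone (0.0668). Neither the rise with interferon in ADAR1_WT, 11.3 ± 2.92 points, nor the untreated excess of STAT2_NULL, 16 ± 2.55, was called, although libraries did not overlap (edgeR adjusted p = 0.217 and 0.327).

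Blcap Gln→Arg (chr2:157383876) had 11.4% and 3.73% in untreated ADAR1_WT and 12.7% and 11.2% after interferon. ADAR1_NULL had 0.258% and 0.362%, then 0.106% and 0.362%, and was again the lowest line. ADAR1_NULL differed from ADAR1_WT by -7.28 ± 3.86 points untreated (edgeR adjusted p = 0.000148) and -11.7 ± 0.782 after interferon (2.13e-06), and ADAR2_NULL lay above ADAR1_NULL by 3.99 ± 0.178 (0.000942) and 6.34 ± 0.795 points (2.53e-05). These 4 calls held under every alternative. P150_KO, at 1.10% and 2.17% untreated and 4.83% and 0.689% after interferon, differed from ADAR1_WT by -5.95 ± 3.89 (edgeR adjusted p = 0.0490) and -9.22 ± 2.21 points (0.00624), and from interferon-treated ADAR1_NULL by 2.53 ± 2.08 points (0.0287). The untreated call was lost without ADAR1_WT library 1 (edgeR adjusted p = 0.284) or P150_KO library 1 (0.248) or 2 (0.0892), under limma (0.0816), with no minimum level (0.204) and with the compared groups alone (0.112). The 2 interferon calls were lost without P150_KO library 2, and without ADAR1_NULL library 1 or 2, respectively. Both were lost with the compared groups alone (edgeR adjusted p = 0.0739 and 0.680). The second was also lost with no minimum level (edgeR adjusted p = 0.118) and with the minimum level over all 20 libraries (0.140).

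Blcap Lys→Arg (chr2:157383846) had 4.91% and 2.19% in untreated ADAR1_WT and 8.38% and 8.26% after interferon. P150_KO had 1.11% and 2.03% untreated and 0.181% and 0.359% after interferon, so its 2 treated libraries were the lower ones while those of ADAR1_WT were the higher. ADAR1_NULL had group means of 0.229% and 0.399%. After interferon ADAR1_NULL and P150_KO differed from ADAR1_WT by -7.92 ± 0.0924 (edgeR adjusted p = 6.29e-05) and -8.05 ± 0.110 points (2.21e-05), and untreated ADAR1_NULL by -3.32 ± 1.36 (0.000702). ADAR2_NULL lay above ADAR1_NULL by 3.01 ± 0.723 points (edgeR adjusted p = 0.00116) and 3.76 ± 0.274 (0.00107). These 5 calls held under every alternative.

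The response of Blcap Lys→Arg to interferon differed between P150_KO and ADAR1_WT by -6.07 ± 1.44 points, the only called difference between responses at a coding site (edgeR adjusted p = 0.0247). The call was lost without ADAR1_WT untreated library 2 (edgeR adjusted p = 0.0931), P150_KO interferon library 1 (0.0664) or P150_KO untreated library 2 (0.0730). It was also lost with no minimum level (edgeR adjusted p = 0.0840) and with the compared groups alone (0.0632). The same difference at Blcap Tyr→Cys was -8.81 ± 4.5 points and at Gln→Arg -3.27 ± 4.48, neither called (edgeR adjusted p = 0.766 and 0.791). Larger differences of the P150_KO response were not called either. Among them were Ccni Arg→Gly at -29.6 ± 3.81 points (edgeR adjusted p = 0.978) and Ncstn Ser→Gly at -10.1 ± 1.30. The test is on log odds, which are undetermined in groups without an edited read, and both sites have such a group.

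The transcript uc008wxi.1, a UCSC identifier that could not be matched to a gene symbol here, held a Thr→Ala site on chromosome 5 (chr5:31475853, minus strand) with a profile close to that of Blcap Tyr→Cys. Their mean absolute difference over the 10 groups was 4.71 points. Each was the other's nearest site among those that reached 5% and were covered in every group. The Thr→Ala level was 9.97% and 8.51% in untreated ADAR1_WT and 16.6% and 24.3% after interferon. ADAR1_NULL had 0.307% and 0.370%, then 0.388% and 0.567%, and P150_KO 3.4% and 1.85%, then 3.75% and 0.663%. ADAR2_NULL had 15.0% and 11.4%, then 16.1% and 20.1%, and STAT2_NULL 21.4% and 21.8%, then 16.4% and 31.7%. Only the libraries of ADAR1_NULL and P150_KO lay below all of ADAR1_WT.

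At uc008wxi.1 Thr→Ala, ADAR1_NULL differed from ADAR1_WT by -8.90 ± 0.732 points untreated (edgeR adjusted p = 0.00316) and -20.0 ± 3.84 after interferon (0.000381). ADAR2_NULL lay above ADAR1_NULL by 12.8 ± 1.78 (edgeR adjusted p = 0.00178) and 17.6 ± 2.02 points (0.000623), and these 4 calls held under every alternative. P150_KO differed from ADAR1_WT by -18.2 ± 4.13 points after interferon (edgeR adjusted p = 0.00755, and 0.0564 with the compared groups alone). The adjacent synonymous Arg→Arg site (chr5:31475854) had 3.26% and 4.92% in interferon-treated ADAR2_NULL and no edited read in interferon-treated ADAR1_NULL, a difference of 4.09 ± 0.830 points (edgeR adjusted p = 0.00332) that held under every alternative. A synonymous Ser→Ser site 20 bases away (chr5:31475833) had 4.12% and 2.16% in interferon-treated ADAR1_WT. It was lower by -2.85 ± 0.988 points in ADAR1_NULL (edgeR adjusted p = 0.0365) and by -2.97 ± 0.997 in P150_KO (0.0180). These 2 calls were lost without ADAR1_NULL library 1 (edgeR adjusted p = 0.0783) or 2 (0.142) and without P150_KO library 2 (0.0836), respectively.

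The sites raised by interferon were few, and Ccni, which encodes cyclin I, carried the largest called rise. Its Arg→Gly site (chr5:93618610, minus strand) had 0.969% and 0.787% in untreated ADAR1_WT and 26.7% and 34.3% after interferon. ADAR2_NULL went from 0.235% and 0.283% to 17.6% and 20.6%. In interferon-treated ADAR1_NULL, P150_KO and STAT2_NULL the level was 0% and 0.265%, 0.171% and 0%, and 0% and 0.294%. The 4 interferon-treated libraries of ADAR1_WT and ADAR2_NULL thus stood apart from the other 16, none of which reached 1%. The change with interferon was 29.6 ± 3.81 points in ADAR1_WT (edgeR adjusted p = 0.00132) and 18.8 ± 1.5 in ADAR2_NULL (0.00115).

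After interferon, Ccni Arg→Gly differed from ADAR1_WT by -30.4 ± 3.81 points in ADAR1_NULL (edgeR adjusted p = 7.17e-05), P150_KO (5.92e-05) and STAT2_NULL (0.000298). ADAR2_NULL lay above ADAR1_NULL by 18.9 ± 1.5 points (edgeR adjusted p = 0.000314). All 6 Ccni Arg→Gly calls held under every alternative. The difference of responses from ADAR1_WT was -29.6 ± 3.82 points in STAT2_NULL and -29.6 ± 3.81 in P150_KO, and neither was called (edgeR adjusted p = 0.220 and 0.978). The test is on log odds, which are undetermined where a group has no edited read, as in untreated P150_KO. Whether this bears on either result was not tested. ADAR2_NULL after interferon was -11.4 ± 4.09 points from ADAR1_WT, with no overlap of libraries, and was not called (edgeR adjusted p = 0.822).

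A synonymous Lys→Lys site 20 bases away in Ccni (chr5:93618590) had 0% and 0.198% in untreated ADAR1_WT and 2.35% and 2.24% after interferon. The rise of 2.20 ± 0.113 points was called (edgeR adjusted p = 0.0304) and was lost without ADAR1_WT untreated library 1 (0.153), with no minimum level (0.0626) and with the compared groups alone (0.0984). Interferon-treated ADAR2_NULL had almost the same levels, 2.19% and 2.39%, and the rise there was not called (edgeR adjusted p = 0.285).

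Ncstn encodes nicastrin, a subunit of gamma-secretase, and its Ser→Gly site (chr1:174004457, minus strand) was read on 108 to 189 reads per library in 9 groups, and untreated ADAR1_NULL was not covered. In untreated ADAR1_WT no edited read was found, which allows up to 1.07%, and 8.76% and 11.4% were found after interferon. ADAR2_NULL had 0.595% and 0% untreated and 3.95% and 5.33% after interferon. Interferon-treated ADAR1_NULL, P150_KO and STAT2_NULL had no edited read, with limits of 1.16%, 0.946% and 0.912%. Ncstn Ser→Gly thus followed the order of lines seen at Ccni Arg→Gly. The rise in ADAR1_WT was 10.1 ± 1.30 points (edgeR adjusted p = 0.0106), a call lost without ADAR1_WT untreated library 1 (0.0521) or 2 (0.0649) and with the compared groups alone (0.0837). The rise in ADAR2_NULL, 4.34 ± 0.754 points, was not called (edgeR adjusted p = 0.0805).

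After interferon, Ncstn Ser→Gly differed from ADAR1_WT by -10.1 ± 1.30 points in ADAR1_NULL (edgeR adjusted p = 0.00663), P150_KO (0.00549) and STAT2_NULL (0.00899). The first 2 calls held under every alternative, and the STAT2_NULL call was lost without STAT2_NULL library 1 (edgeR adjusted p = 0.0636) or 2 (0.0672). ADAR2_NULL lay above ADAR1_NULL by 4.64 ± 0.693 points (edgeR adjusted p = 0.0269). That call was lost without ADAR1_NULL library 1 or 2 or ADAR2_NULL library 2, and with no minimum level (edgeR adjusted p = 0.113).

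Acan encodes aggrecan, the main proteoglycan of cartilage, and its synonymous Ser→Ser site (chr7:86242858, plus strand) had 0.323% and 0.262% in untreated ADAR2_NULL and 8.23% and 5.09% after interferon. No other covered library exceeded 0.837%, and interferon-treated ADAR1_WT had 0.393% and 0.559%. The rise in ADAR2_NULL was 6.37 ± 1.57 points (edgeR adjusted p = 0.0101) and was lost without ADAR2_NULL untreated library 2 (0.0688). After interferon ADAR2_NULL lay 6.17 ± 1.61 points above ADAR1_NULL (edgeR adjusted p = 0.0124), a call lost without ADAR1_NULL library 2 (0.128) or ADAR2_NULL library 1 (0.0503). The difference from ADAR1_WT, 6.18 ± 1.57 points, was not called (edgeR adjusted p = 0.154). Acan was thus the 1 site above 5% in interferon-treated ADAR2_NULL and under 1% in interferon-treated ADAR1_WT, apart from Ifi202b.

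Zfp397 held 3 called sites on chromosome 18, plus strand, all at low levels and on 164 to 302 reads per library in the 9 covered groups. Lys→Arg (chr18:24118880) had 4.27% and 2.41% in interferon-treated ADAR1_WT and no edited read in interferon-treated ADAR1_NULL or P150_KO, with limits of 0.584% and 0.686%. The differences were both -3.34 ± 0.932 points (edgeR adjusted p = 0.0194 and 0.0278). The adjacent Lys→Lys site (chr18:24118881) was -2.09 ± 0.484 points from ADAR1_WT in ADAR1_NULL (edgeR adjusted p = 0.0415). A second Lys→Arg site (chr18:24118937), at 2.56% and 2.41% in interferon-treated ADAR1_WT, was lower by -2.49 ± 0.0772 points in P150_KO and in STAT2_NULL (edgeR adjusted p = 0.0365 and 0.0436). Each of these 5 Zfp397 calls was lost without either library of the knockout line, with an edgeR adjusted p of 0.0808 and 0.0947 for the first, 0.0897 and 0.118 for the second, 0.129 and 0.147 for the third, 0.0999 and 0.128 for the fourth, and 0.165 and 0.149 for the fifth.

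Son, a protein of nuclear speckles that acts in splicing, held 3 sites at 5% or more, each through 1 library (chromosome 16, plus strand). Leu→Leu (chr16:91656378) had 14.6% and 0% in interferon-treated ADAR1_WT, Thr→Ala (chr16:91656331) had 0% and 10.6% in untreated ADAR1_WT, and Ser→Ser (chr16:91656315) had 1.45% and 9.64% in interferon-treated STAT2_NULL. The 2 libraries of these groups thus lay far apart, and the group means describe neither. Ser→Ser was called after interferon between ADAR1_NULL, with no edited read, and ADAR1_WT, with 3.56% and 2.96%, at -3.26 ± 0.300 points (edgeR adjusted p = 0.0320). The call was lost without either ADAR1_NULL library (edgeR adjusted p = 0.125 in both cases) and with no minimum level (0.0543).

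Another 3 sites reached 5% through 1 library and were called in no comparison. Kcna1 Thr→Ala (chr6:126592179, minus strand), in a voltage-gated potassium channel, had 0.152% and 10.5% in untreated ADAR1_WT. Kif1a Glu→Gly (chr1:94951517, minus strand), in a kinesin motor of axonal transport, had 12.0% and 0.455% in untreated P150_KO. Cacna1g Glu→Glu (chr11:94270885, minus strand), in a T-type calcium channel, had 0% and 12.7% in untreated P150_KO on 112 and 71 reads. Every other covered library was at or under 1.24% at Kcna1, 0.511% at Kif1a and 1.63% at Cacna1g.

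Ppwd1, a WD-repeat peptidyl-prolyl isomerase found with spliceosomes, carried a Ser→Gly site (chr13:105018767, minus strand) that was called in no comparison. Its group means lay between 8.56% in interferon-treated ADAR1_NULL and 12.0% in interferon-treated ADAR1_WT over the 9 groups covered. Interferon-treated ADAR1_NULL had 9.30% and 7.83% and ADAR2_NULL 9.22% and 7.94%, a difference between the line without ADAR2 and the line without ADAR1 of 0.0156 ± 0.973 points (edgeR adjusted p = 0.998). Over the 16 comparisons in which it was tested, it had edgeR adjusted p-values of 0.633 to 1.0. The greatest difference was -3.48 ± 1.16 points, between ADAR1_NULL and ADAR1_WT after interferon. The other 4 Ppwd1 members reached 0.959% to 1.97% at their highest. With cDNA reads alone, editing at the Ser→Gly site cannot be told apart from a DNA difference or from reads of a similar copy.

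Ifi202b Lys→Glu (chr1:175901522, minus strand) divided the lines in another way. It had 59.4% and 60.5% in untreated ADAR2_NULL and 57.9% and 55.3% after interferon. STAT2_NULL had 61.0% and 57.4%, then 56.8% and 56.8%. ADAR1_WT and ADAR1_NULL had at most 0.610% in any library, on 1783 to 2695 reads over the 8 covered groups, and P150_KO was not covered in both libraries. The ADAR2_NULL and STAT2_NULL libraries thus lay near 60% with and without interferon, and the others near 0. ADAR2_NULL differed from ADAR1_WT by 59.6 ± 0.564 points untreated (edgeR adjusted p = 2.6e-05) and 56.4 ± 1.34 after interferon (3.66e-05), and STAT2_NULL by 58.9 ± 1.82 (5.18e-05) and 56.6 ± 0.123 (5.4e-06). With the compared groups alone 3 of these 4 calls were lost (edgeR adjusted p = 0.0721, 0.190 and 0.130), and that of STAT2_NULL after interferon was kept. ADAR2_NULL lay 59.7 ± 0.518 points above ADAR1_NULL untreated (edgeR adjusted p = 1.7e-06) and 56.4 ± 1.34 after interferon (1.51e-06), and both calls held under every alternative.

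The other 37 Ifi202b members reached at most 0.659% in any group. The files hold reads of cDNA alone, so at this site too an A-to-G difference in the DNA of a line and RNA editing cannot be told apart. Ifi202b belongs to a family of similar neighbouring genes, and the assignment of reads between such copies is not given in the sources used here. Without Ifi202b, no coding site was called higher in ADAR2_NULL or STAT2_NULL than in ADAR1_WT.

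Likeness was measured as the mean absolute difference of group levels, only among the 10 sites that reached 5% and were covered in every group. Beyond the pair of Blcap Tyr→Cys with uc008wxi.1 Thr→Ala, the nearest site of Blcap Gln→Arg was Blcap Lys→Arg at 3.18 points. The nearest site of Gria3 Arg→Gly was Ccni Arg→Gly at 7.08 points, while that of Ccni Arg→Gly was Blcap Lys→Arg at 5.49 points. Cog3 Ile→Val had no near neighbour, its closest being Blcap Tyr→Cys at 42.0 points. The measure follows the level of a site as well as its order over the lines, so low sites lie near each other.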

How the data were processed

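RT-PCR amplicons of 20 libraries (10 groups of 2) were sequenced, and the deposited files give 1 row per site with coverage and edited reads as counts, together with the editing level that the authors deposited as a fraction. That fraction equalled edited reads divided by coverage within 0.0005. BWA, SAMtools and build mm9 are named in the submitters' processing notes, per the labels, and no version, filter or rule for reads of similar copies is given in the sources used here. Products were indexed in 15 cycles of PCR, per the labels' protocols, and reads carry no molecular identifiers.

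Levels were recomputed from the counts of edited reads and coverage, and a group's level is the mean of its 2 libraries. Edited and unedited counts of all 20 libraries entered 1 edgeR 4.0.16 fit (R 4.3.3, limma 3.58.1) in its methylation design, with quasi-likelihood tests. Sites of every annotation needed 50 reads in each library compared and a mean level of 1%, and Benjamini-Hochberg adjustment ran over all of them. Tables and plots used matplotlib 3.10.9, scipy 1.17.1, pandas 2.3.3 and numpy 2.4.6 under Python 3.11.15. Sites were named where they reached 5% in a group or were called in a comparison, with intronic neighbours within 500 bases, and other members named stand out by their gene's known recoding or nearness to 5% and were chosen after their values were seen. Of these, 1 site that meets this rule is not reported here by name and stays in the counts. Members, gene lists and tests were chosen with earlier results of these data known.

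Alternatives were coverage minimums of 20 and 100, no minimum level, limma on log2 odds of edited against unedited counts with a pseudocount of 0.5, the replicate number as a block, the compared groups fitted alone, each library left out, and, chosen after seeing the data, a minimum level over all 20 libraries. Same-numbered libraries of 45 pairs of groups had correlations of -0.109 to 0.106 in their deviations, so no pairing by number was seen. With 2 libraries in each group this check cannot exclude one, and the labels do not say whether same-numbered libraries were made together. On simulated counts for the interferon comparison in ADAR1_WT (1223 sites, 100 changed at each size), 70% of sites with an odds ratio of 4 and 98% with 16 were recovered, and 1.75% of calls were false. The simulated base level of a site was the same in all groups and at least 1%. All sites had 1 spread between libraries, and no minimum level was set. These rates therefore need not hold at coding sites with groups at 0% or libraries far apart.

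Of the 44 gene names, 36 are current RefSeq symbols, 4 were matched through an older symbol, and 4 are UCSC identifiers with no match.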

Additional observations from a re-analysis of the deposited data

Results flagged for a closer look

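At Blcap Lys→Arg the response to interferon differed between P150_KO and ADAR1_WT, which singled it out as an effect that differs between lines under 1 contrast. The difference of the 2 responses was -6.07 ± 1.44 points (edgeR adjusted p = 0.0247), with 2 libraries in each of the 4 groups. In ADAR1_WT the 2 treated libraries lay above the 2 untreated ones, and in P150_KO they lay below. Larger differences of the P150_KO response, -29.6 ± 3.81 points at Ccni Arg→Gly and -10.1 ± 1.30 at Ncstn Ser→Gly, were not called. Being the only call thus does not make Blcap Lys→Arg the site with the largest difference. The call was lost with no minimum level (edgeR adjusted p = 0.0840), with the compared groups alone (0.0632), and without ADAR1_WT untreated library 2 (0.0931), P150_KO interferon library 1 (0.0664) or P150_KO untreated library 2 (0.0730).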

How the results depend on the processing

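None of the 80 called site and comparison pairs changed direction under the alternatives run. Of them, 34 stayed called under all, and 42 stayed called without each library in turn. A coverage minimum of 20 ended 3 calls, one of 100 ended 2, no minimum level 18, limma 1, the minimum over all libraries 6 and the compared groups alone 37. Fitting the compared groups alone left 1 call for interferon in ADAR1_WT, 3 each for P150_KO and STAT2_NULL against ADAR1_WT after interferon, and 0 for P150_KO, ADAR2_NULL and STAT2_NULL against ADAR1_WT untreated, ADAR2_NULL against it after interferon, P150_KO against ADAR1_NULL in both treatments and the P150_KO response. That fit has fewer libraries to estimate the spread. Limma called 4 sites for interferon in ADAR2_NULL, 5 for ADAR2_NULL against ADAR1_WT after interferon, 2 and 6 for P150_KO against ADAR1_NULL untreated and treated, and 1, 3 and 2 for the responses of ADAR1_NULL, P150_KO and STAT2_NULL. With no minimum level P150_KO against ADAR1_WT untreated had 1 call and its response 0, and with the minimum over all libraries P150_KO had 2 calls against ADAR1_WT and 2 against ADAR1_NULL untreated and 1 against ADAR1_NULL after interferon. The causes of the limma, minimum-level and all-library changes were not tested. Counts in this section are of coding sites alone. The share of all sites called under each alternative was not set beside them, so they show no change particular to coding sites. The losses named with single sites above are not a full list.

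Without 1 library each, the counts ran, for interferon, from 2 to 4 in ADAR1_WT, 0 to 0 in ADAR1_NULL, 0 to 1 in P150_KO, 1 to 4 in ADAR2_NULL and 0 to 0 in STAT2_NULL. Against ADAR1_WT untreated they ran from 5 to 7 in ADAR1_NULL, 0 to 2 in P150_KO, 2 to 5 in ADAR2_NULL and 1 to 2 in STAT2_NULL, and after interferon from 8 to 15, 6 to 12, 1 to 4 and 3 to 5. Against ADAR1_NULL they ran from 1 to 2 and 1 to 4 in P150_KO and 6 to 7 and 8 to 9 in ADAR2_NULL, untreated and treated. For responses they ran from 0 to 1 in ADAR1_NULL and P150_KO and 0 to 0 in ADAR2_NULL and STAT2_NULL. A group left with 1 library is assumed to vary like the others.

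The replicate number showed no pairing of libraries in the correlations of deviations, which cannot exclude one. As a block it gave 4 and 3 calls for interferon in ADAR1_WT and ADAR2_NULL, 8, 3, 5 and 2 against ADAR1_WT untreated and 14, 12, 3 and 6 after interferon in ADAR1_NULL, P150_KO, ADAR2_NULL and STAT2_NULL, and it ended 3 of the 80 calls.

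From pooled reads 21 sites reached 5% in place of 23. Depth limits what is shown, since 342 of the 401 sites were never tested, and levels of 0 bound editing only to their stated limits.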
